A study of Mus musculus with 9 samples.

Results

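The collagen genes described here are the 44 protein-coding mouse genes of the GENCODE M21 annotation whose symbol has the form of a collagen chain, Col followed by a type number and a chain number. All 44 were among the 49315 genes of the deposited count table. By collagen type they fall into 9 fibrillar genes (types I, II, III, V and XI), 6 basement membrane genes (type IV), 6 type VI genes, 9 genes of the FACIT class (types IX, XII, XIV, XVI and XIX to XXII), and 14 others. RNA was read as poly-A libraries from pancreatic stellate cells of the C57BL6 strain, fibroblast-like matrix-producing cells of the pancreas that had been immortalized by spontaneous outgrowth. The cells carried lentiviral Cas9 and 1 guide RNA each, were selected with puromycin and were kept as polyclonal populations, so every group shares the virus, Cas9 and the selection. R26 normoxia is the control guide R26 sg1 at 20% oxygen for 48 h, R26 hypoxia is the same guide at 0.5% oxygen for 48 h, and HIF1a-ko hypoxia is the guide HIF1a sg2 at 0.5% oxygen for 48 h, with 3 libraries in each group. The Hif1a guide at 20% oxygen was not analysed here, and its effect was compared at low oxygen alone. HIF1a-ko hypoxia and R26 normoxia differ in both guide and oxygen, so a difference between them cannot be credited to either alone. All groups came from the same immortalized stellate cells cultured without other cell types, which is what limits them as a model of pancreatic tissue. Whether libraries of a group were separate cultures is not in the labels. P-values therefore measure only how far these samples spread, and that spread may be technical.

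A collagen molecule is made of 3 polypeptide chains wound into a triple helix, and the chains of 1 molecule can come from different genes. Fibrillar collagens assemble into the banded fibrils that give tissue its tensile strength, type IV forms the sheet-like network of basement membranes, and type VI forms beaded filaments around cells. FACIT collagens (fibril-associated collagens with interrupted triple helices) sit on the surface of fibrils, and the remaining types include network-forming, transmembrane and endostatin-releasing collagens. Activated stellate cells are a main source of the collagen-rich stroma of the diseased pancreas, and HIF-1, whose oxygen-regulated subunit Hif1a encodes, is the transcription factor complex through which many genes respond to low oxygen.

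The libraries held 43837809 to 107840223 counts. In each group 1 library (HIF1a-ko hypoxia 1, R26 hypoxia 3 and R26 normoxia 3) was deeper than the other 6. Levels are counts scaled to 1 common library size (CPM) by the TMM factors of edgeR. Values by library are given in the order of libraries 1, 2 and 3 of a group. Reads of the targeted gene, Hif1a, came to 194, 192 and 225 CPM (R26 normoxia), 178, 169 and 207 CPM (R26 hypoxia) and 123, 117 and 125 CPM (HIF1a-ko hypoxia). They were fewer in the HIF1a-ko libraries than in every R26 library (log2 fold change -0.60 ± 0.09 (SE) against R26 hypoxia, adjusted p = 0.000319). All 10 stellate cell or fibroblast markers were counted, with Vim and Acta2 at means of 3874 and 1520.5 CPM in R26 normoxia, while Des and Lum, also on that list, stood at 1.82 and 2.97 CPM. The summed level of that list was 7548 to 7835 CPM in R26 normoxia, 7062 to 7246 CPM in R26 hypoxia and 6228 to 6374 CPM in HIF1a-ko hypoxia. Markers of 4 other cell types moved with depth, in that the shallower and deeper libraries did not overlap: 4 adipocyte genes summed to 53.6 to 109.8 CPM in the 6 shallower libraries and to 0.246 to 0.521 CPM in the 3 deeper ones, and 7 leukocyte genes to 51.4 to 80.04 and to 7.99 to 15.4 CPM. The 6 epithelial markers summed to 56.9 to 106.6 CPM in the shallower and 14.1 to 46.5 CPM in the deeper libraries, where Krt18 was at 0, and the 5 endothelial markers to 11.5 to 16.1 and 6.44 to 7.53 CPM. Other lists moved with group: the 7 acinar and islet markers summed to 9.86 to 14.03 CPM in R26 normoxia, 9.90 to 12.2 CPM in R26 hypoxia and 4.29 to 6.90 CPM in HIF1a-ko hypoxia, with Amy2a5, Ins1 and Ins2 at 0 in every library. The 4 Schwann or glial markers summed to 7.69 to 9.74, 5.15 to 6.33 and 5.37 to 6.66 CPM, highest in normoxia, and chondrocyte markers are given beside the type XI chains. Each group holds 1 deeper and 2 shallower libraries, and the part of these other-cell reads in the results below was not tested.

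Collagen chains made up a larger share of all counts in R26 hypoxia than in R26 normoxia, and a smaller share in HIF1a-ko hypoxia than in either. The 44 genes held 2.13%, 2.25% and 2.27% of the counts of R26 normoxia. They held 2.56%, 2.56% and 2.67% in R26 hypoxia and 1.82%, 1.83% and 1.82% in HIF1a-ko hypoxia, so the groups did not overlap. As mean ± SD over 3 libraries this was 2.22% ± 0.0729, 2.60% ± 0.0648 and 1.82% ± 0.00497. The classes did not follow the total alike. Fibrillar genes went from 1.30% ± 0.0763 in R26 normoxia to 1.56% ± 0.0839 in R26 hypoxia and 1.01% ± 0.0142 in HIF1a-ko hypoxia, and type VI genes from 0.623% ± 0.0275 to 0.729% ± 0.0272 and 0.480% ± 0.0152. Basement membrane genes had the opposite order, with 0.212% ± 0.00721, 0.185% ± 0.00615 and 0.228% ± 0.00215. FACIT genes were lowest in normoxia, with 0.0526% ± 0.00147, 0.0901% ± 0.00383 and 0.0760% ± 0.00122, and the groups did not overlap in any of these 4 classes. The other collagens held 0.0256% ± 0.00104, 0.0316% ± 0.00233 and 0.0260% ± 0.00110, with HIF1a-ko hypoxia and R26 normoxia overlapping. The 95% Wilson interval of a single library's share was at most 0.00451 percentage points to either side, which covers counting error only. In bulk RNA of this kind, fewer cells that make a transcript and less of it per cell cannot be told apart.

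**Figure D1:**
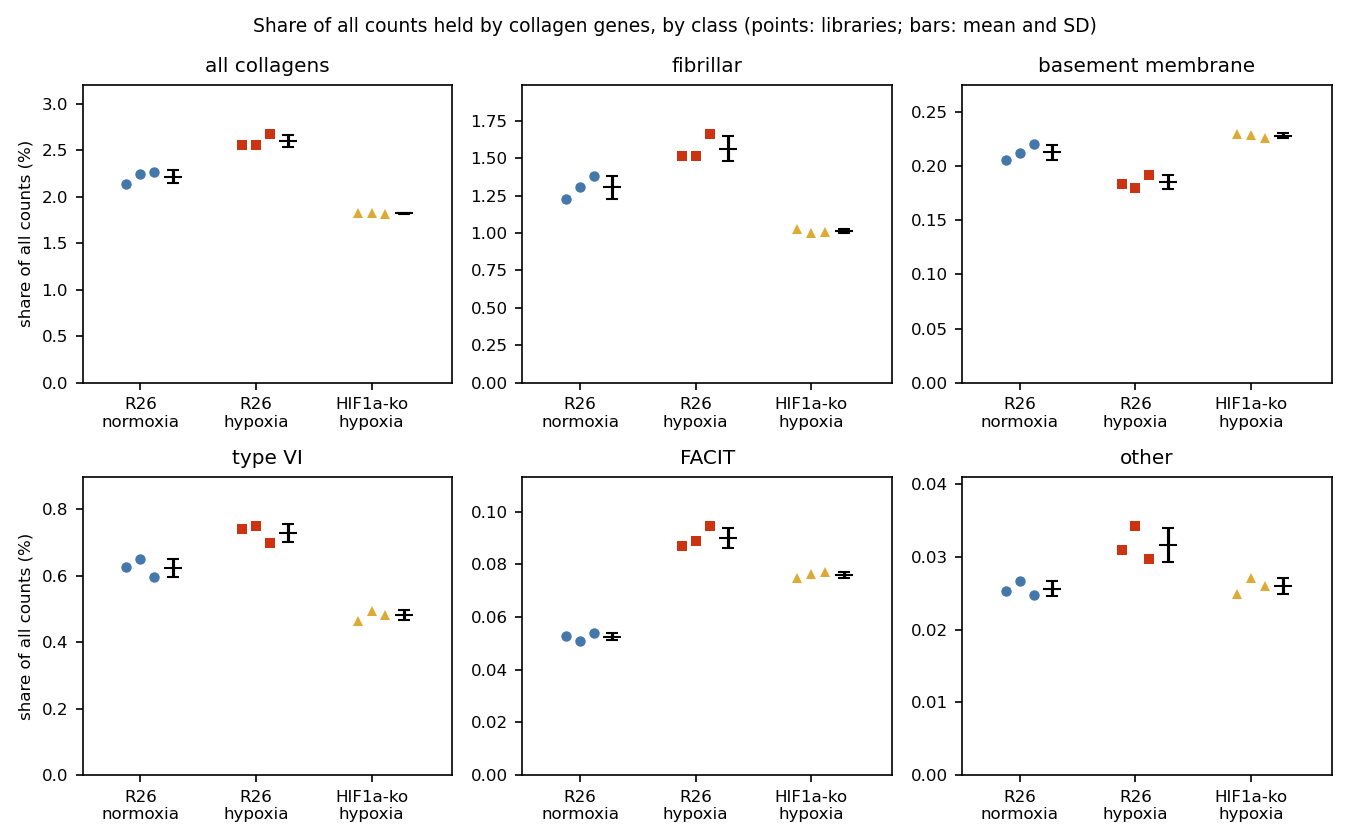
Share of all counts of a library (percent, y axis, each starting at 0) held by all 44 collagen chain genes and by each class, with 1 point per library and the mean and SD of the 3 libraries as a black bar. The total is 2.13% to 2.27% in R26 normoxia, 2.56% to 2.67% in R26 hypoxia and 1.82% to 1.83% in HIF1a-ko hypoxia, while the basement membrane class runs the other way.

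The mix of collagen counts differed between the groups as well. Fibrillar genes held 58.8%, 60.1% and 55.5% of collagen counts on average in the groups R26 normoxia, then R26 hypoxia and HIF1a-ko hypoxia, and type VI genes 28.1%, 28.1% and 26.4%. Basement membrane genes held 9.58%, 7.12% and 12.5%, FACIT genes 2.37%, 3.47% and 4.17%, and the others 1.16%, 1.22% and 1.43%. Few genes made up the total: Col1a1 and Col1a2 together gave 47.3%, 48.1% and 41.0% of collagen counts, and with Col6a1 and Col6a2 73.3%, 73.1% and 65.3%. Col1a2 and Col1a1 ranked 6th and 7th of all genes by mean CPM in R26 normoxia, 5th and 7th in R26 hypoxia, and 12th and 10th in HIF1a-ko hypoxia. Since Col1a2 was among the 10 most counted genes of every R26 library and of no HIF1a-ko library, taking out each library's 10 most counted genes changed the shares to 1.27%, 1.47% and 1.55%, so that HIF1a-ko hypoxia went from the lowest to the highest of the 3 groups. Without the 10 most counted genes that are no collagens, an alternative chosen after seeing the data, the shares were 2.40%, 2.82% and 1.97%.

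Levels of different genes were compared per kilobase of the principal transcript. On that scale Col1a2 stood at 1029, 1241 and 658 CPM per kb in normoxia, R26 hypoxia and HIF1a-ko hypoxia, Col1a1 at 855, 1029.6 and 636, and Col6a1 at 896, 1031 and 631. Col6a2 came next with 538, 604 and 435 CPM per kb. Below these 4 genes, Col4a1 (153, 124 and 173 CPM per kb) was the highest of the remaining chains in R26 normoxia and in HIF1a-ko hypoxia, whereas Col5a2 (131, 156 and 131 CPM per kb) was in R26 hypoxia. This order of chains, also that of type I, rests on the transcript chosen. Per kilobase of all annotated exons, Col6a1 was highest in R26 normoxia, at 839 CPM per kb. Col1a1 stood at 773, Col1a2 at 443 and Col6a2 at 255 there. On that scale Col5a1 (144 CPM per kb) was above Col4a1 (110) and Col5a2 (108) in R26 hypoxia.

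Of the 44 genes, 36 passed the filter on low counts and were tested, and 25 are given below in every library. In R26 hypoxia against R26 normoxia, 15 of the 36 rose and 3 fell at an adjusted p under 0.05 (edgeR quasi-likelihood test with Benjamini-Hochberg adjustment over 18211 genes). Of all genes tested, 13.1% rose and 12.7% fell in that comparison. The median log2 fold change of the 36 was 0.22, and that of all genes tested -0.01. In HIF1a-ko hypoxia against R26 hypoxia, 6 rose and 17 fell, beside 22.6% and 24.1% of all genes, with medians of -0.29 for the 36 and -0.01 for all genes. In HIF1a-ko hypoxia against R26 normoxia, 11 rose and 15 fell, beside 19.9% and 22.1% of all genes, with medians of -0.17 and -0.01. Any 2 of these comparisons share a group of libraries, so their values are given side by side and no overlap of genes is read from them. Of the 3 genes that fell in hypoxia, Col4a1 was called in all 9 fits that left out 1 library (adjusted p up to 0.00964). Col4a2 was called in 6 of them and Col8a2 in 1. The count was 1 without R26 normoxia 2 and 1 without R26 normoxia 3. The 11 that rose in HIF1a-ko hypoxia against R26 normoxia were 7 without R26 normoxia 1.

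**Figure D2:**
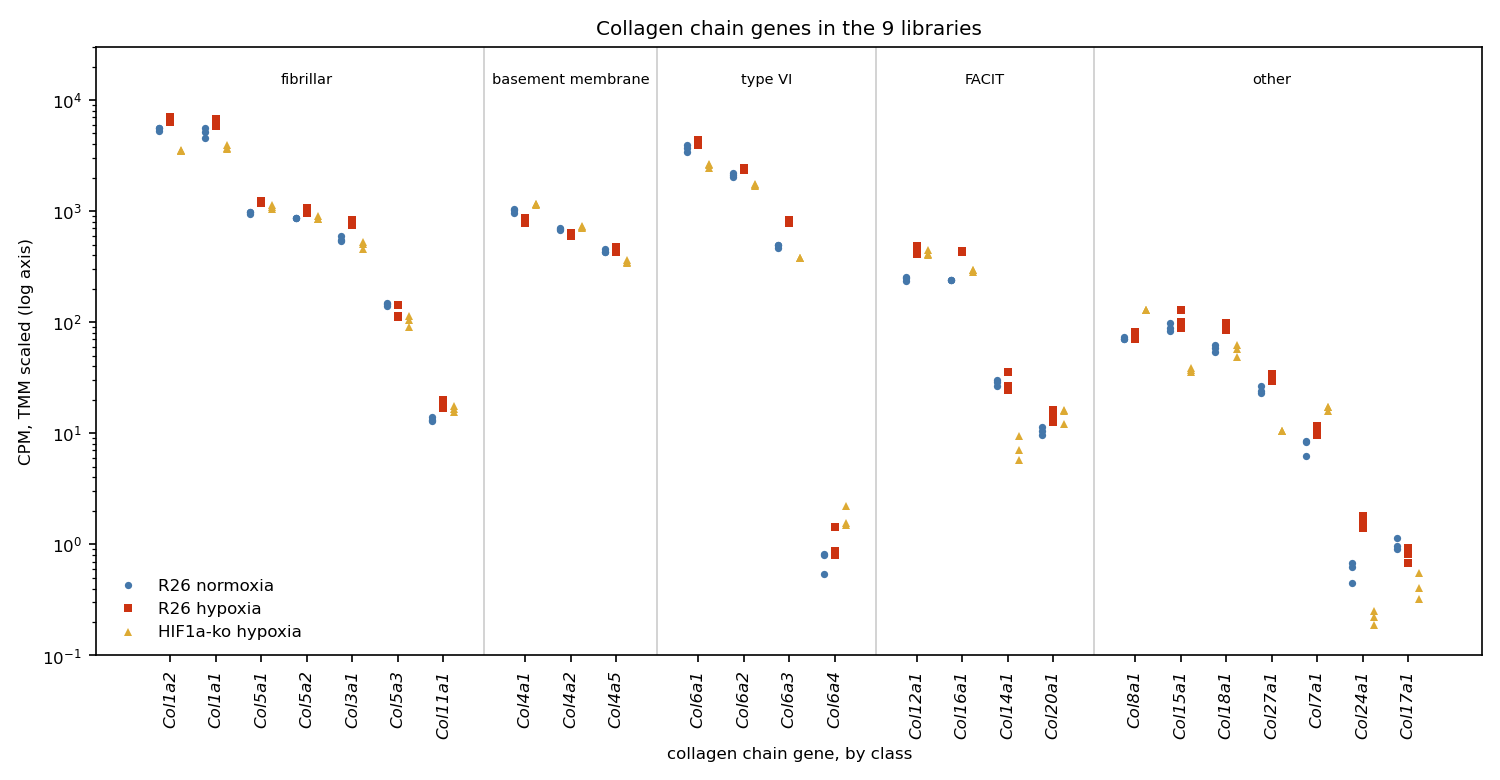
Level of 25 collagen chain genes in the 9 libraries (CPM with TMM scaling, log axis), grouped by class and sorted within a class by their highest group mean, with 1 point per library. Col1a2, Col1a1, Col6a1 and Col6a2 lie highest, and Col24a1, Col14a1, Col27a1 and Col15a1 show HIF1a-ko hypoxia points apart from and below the R26 points.

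The type I chains, which form the main fibrillar collagen of stroma, were higher in hypoxia by a small amount and lower with the Hif1a guide by a larger one. Col1a2 (chr6:4504814-4541544, plus strand), which encodes the α2 chain, stood at 5278, 5609 and 5625 CPM in R26 normoxia, 6628, 6312 and 6970.5 CPM in R26 hypoxia and 3468, 3498 and 3584 CPM in HIF1a-ko hypoxia. The 3 groups did not overlap, and HIF1a-ko hypoxia lay below normoxia. Its log2 fold change was 0.27 ± 0.06 (SE) in hypoxia (adjusted p = 0.00706), -0.92 ± 0.06 for HIF1a-ko against R26 hypoxia (adjusted p = 1.36e-06) and -0.65 ± 0.06 for HIF1a-ko hypoxia against R26 normoxia (adjusted p = 1.67e-05). Col1a1 (chr11:94936224-94953042, plus strand), which encodes the α1 chain, stood at 4565, 5104 and 5542 CPM, 5796, 5784 and 6736 CPM and 3974, 3611 and 3732 CPM in the same order of groups and libraries. These groups did not overlap either, but the R26 normoxia libraries were more spread, and the deeper library of each group was the highest. Col1a1 did not pass the test in hypoxia (0.27 ± 0.09, adjusted p = 0.0528). It was lower in HIF1a-ko hypoxia than in R26 hypoxia (-0.69 ± 0.09, adjusted p = 0.000156) and R26 normoxia (-0.43 ± 0.09, adjusted p = 0.00366). With the replicate block its hypoxia difference passed, at an adjusted p of 0.0438 over all 9 libraries and 0.000599 with the R26 groups alone. It also passed with depth class as a term (0.000731), with the 6 shallower libraries alone (0.00142) and with DESeq2 (0.0107). Of 11 other settings 8 called it. Of the 9 fits that left out 1 library 2 did, without R26 normoxia 3 (0.0228) and without HIF1a-ko hypoxia 1 (0.049).

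Of types III and V, which mix with type I in fibrils, Col3a1, Col5a1 and Col5a2 rose in hypoxia, and they differed in where HIF1a-ko hypoxia stood. Col3a1 (chr1:45311538-45349706, plus strand), the only chain of type III, was read at 544, 598 and 543 CPM in R26 normoxia, 767, 835 and 754 CPM in R26 hypoxia and 459, 527 and 510.5 CPM in HIF1a-ko hypoxia. It rose by 0.48 ± 0.07 in hypoxia (adjusted p = 0.000875) and had a log2 fold change of -0.65 ± 0.07 for HIF1a-ko against R26 hypoxia (adjusted p = 3.95e-05). Against R26 normoxia the value was -0.17 ± 0.07 (adjusted p = 0.0695), although no HIF1a-ko library reached the lowest normoxia library. Col5a2 (chr1:45374321-45503282, minus strand), which encodes the α2(V) chain, lies tail to tail with Col3a1, 24614 bp away with no protein-coding gene between them. Col5a2 was read at 867, 870.1 and 862 CPM, 1049, 969 and 1076 CPM and 849.6, 849 and 904 CPM in the same order. It was higher in every R26 hypoxia library, with 0.25 ± 0.05 in hypoxia (adjusted p = 0.00562) and -0.25 ± 0.05 for the Hif1a guide (adjusted p = 0.0026), while HIF1a-ko hypoxia and R26 normoxia overlapped (0.00 ± 0.05, adjusted p = 0.98).

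Col5a1 (chr2:27886425-28039514, plus strand), whose α1(V) chain starts fibril assembly, was read at 945, 984 and 985 CPM in R26 normoxia, 1187, 1240.4 and 1244 CPM in R26 hypoxia and 1129, 1097 and 1036 CPM in HIF1a-ko hypoxia. HIF1a-ko hypoxia lay between the R26 groups without overlap, at -0.17 ± 0.05 against R26 hypoxia (adjusted p = 0.0141) and 0.16 ± 0.05 against R26 normoxia (adjusted p = 0.0195), and the hypoxia difference was 0.33 ± 0.05 (adjusted p = 0.000902). Its smaller differences were not called without 1 library: the adjusted p against R26 hypoxia was 0.0795 without HIF1a-ko hypoxia 3, and against R26 normoxia 0.0764 without R26 normoxia 1 and 0.0561 without HIF1a-ko hypoxia 2. With the library total as scaling, Col5a1 was not called against R26 hypoxia (adjusted p = 0.109). Col5a3, the third type V chain, had 144, 149.99 and 139.9 CPM, 114, 142 and 111 CPM and 104, 114 and 91.2 CPM in the same order of groups. It was the fibrillar gene above 1 CPM whose fitted hypoxia difference was negative (-0.24 ± 0.10, adjusted p = 0.119), with R26 hypoxia 2 overlapping normoxia, and it was lower in HIF1a-ko hypoxia than in R26 normoxia (-0.49 ± 0.10, adjusted p = 0.00394). That hypoxia difference passed with the replicate block over 9 libraries (adjusted p = 0.023) and with the R26 groups alone (adjusted p = 0.00759). It also passed with depth class as a term (adjusted p = 0.0371) and without R26 hypoxia 2 (adjusted p = 0.0211). Of 11 other settings 3 called it. For the Hif1a guide in hypoxia Col5a3 had -0.25 ± 0.10 (adjusted p = 0.0785), called without R26 hypoxia 3 (adjusted p = 0.0373) and without HIF1a-ko hypoxia 2 (adjusted p = 0.0468).

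The type XI chains, minor fibril components best known from cartilage, were low but rose in hypoxia. Col11a1 had 14.1, 13.1 and 12.8 CPM in R26 normoxia, 19.4, 16.9 and 19.8 CPM in R26 hypoxia and 16.4, 15.6 and 17.4 CPM in HIF1a-ko hypoxia. Every hypoxic library of either guide lay above every normoxia library (0.49 ± 0.08, adjusted p = 0.00188, and 0.31 ± 0.08, adjusted p = 0.0114). HIF1a-ko and R26 hypoxia overlapped, at -0.18 ± 0.08 (adjusted p = 0.0869, and 0.0255 without R26 hypoxia 2). Col11a2, at group means of 2.12, 3.31 and 3.62 CPM, rose by 0.69 ± 0.14 in hypoxia (adjusted p = 0.00644) and by 0.81 ± 0.14 in HIF1a-ko hypoxia against normoxia (adjusted p = 0.00125). Col2a1, the main cartilage collagen, reached at most 0.304 CPM in any library and was not called in any comparison. The chondrocyte markers summed to 30.3 to 40.07 CPM in R26 normoxia, 38.7 to 47.9 CPM in R26 hypoxia and 58.5 to 66.8 CPM in HIF1a-ko hypoxia, with Acan, the defining cartilage proteoglycan, at or near 0 (group means of 0.0717, 0.0899 and 0.0723 CPM).

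In count, 6 of the 9 fibrillar genes rose in hypoxia and none fell (Col1a2, Col3a1, Col5a1, Col5a2, Col11a1 and Col11a2), with a median log2 fold change of 0.27. Of all genes tested, 13.1% rose and 12.7% fell in that comparison. With the Hif1a guide in hypoxia 5 fell and none rose (Col1a1, Col1a2, Col3a1, Col5a1 and Col5a2), with a median of -0.25. Among all genes 22.6% rose and 24.1% fell there. Against normoxia, HIF1a-ko hypoxia had 3 higher (Col5a1, Col11a1 and Col11a2) and 3 lower (Col1a1, Col1a2 and Col5a3), with a median of 0.00. The shares of all genes were 19.9% and 22.1%.

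**Figure D3:**
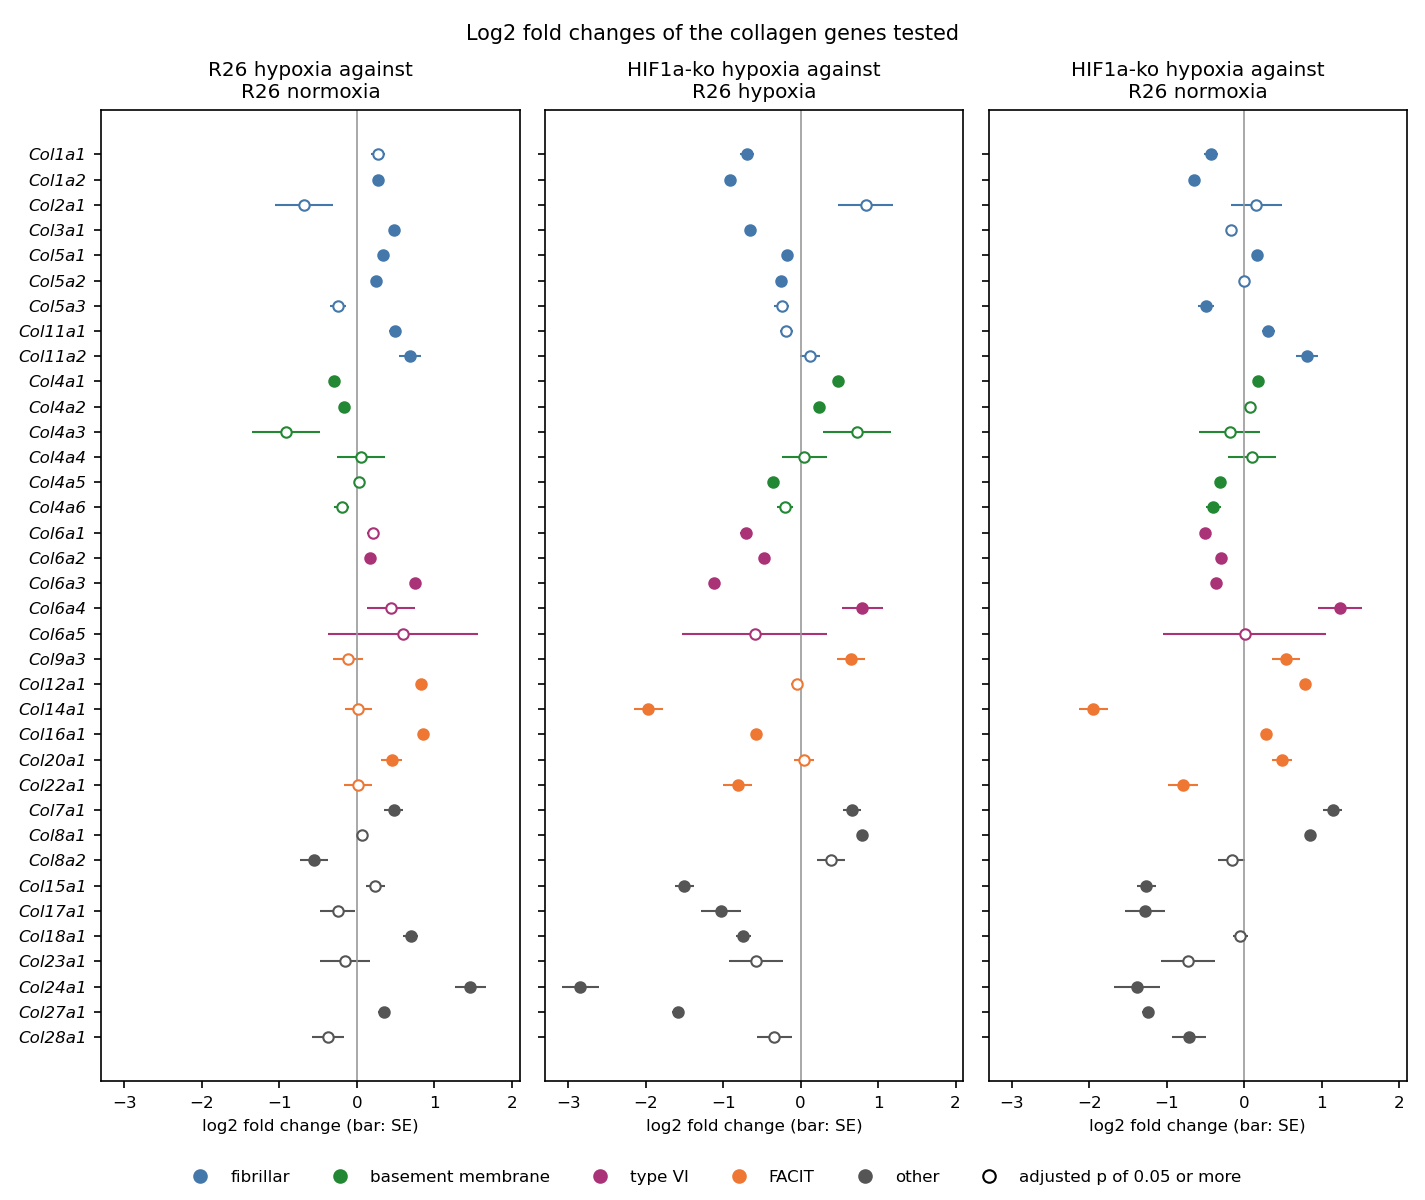
Log2 fold changes with their standard errors (x axis) of the 36 collagen genes tested, in the order of the text, for R26 hypoxia against R26 normoxia, HIF1a-ko hypoxia against R26 hypoxia, and HIF1a-ko hypoxia against R26 normoxia, with filled points at an adjusted p under 0.05 and open points otherwise. Of the filled points, 15 lie right and 3 left of 0 in the first panel, 6 right and 17 left in the second, and 11 right and 15 left in the third.

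Basement membrane genes went the other way at the main pair of type IV chains. Col4a1 (chr8:11198423-11312826, minus strand) and Col4a2 (chr8:11312805-11449287, plus strand) encode the α1 and α2 chains that form the common type IV molecule. They lie head to head, and their annotated starts overlap by 22 bp, shown here on the plus strand of GRCm38.p6 because both genes are read outward from it. Capitals mark the bases from the start of Col4a2 to the start of Col4a1 at chr8:11312801-11312830, from the RefSeq promoter table:
Col4a1 and Col4a2 starts: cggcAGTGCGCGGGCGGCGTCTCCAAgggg

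Col4a1 was read at 969, 1017 and 1042 CPM in R26 normoxia, 819.7, 789 and 858 CPM in R26 hypoxia and 1156, 1149.8 and 1127 CPM in HIF1a-ko hypoxia. The groups did not overlap, with R26 hypoxia lowest and HIF1a-ko hypoxia highest. The log2 fold changes were -0.30 ± 0.05 in hypoxia (adjusted p = 0.00176), 0.48 ± 0.05 for HIF1a-ko against R26 hypoxia (adjusted p = 3.00e-05) and 0.18 ± 0.05 for HIF1a-ko hypoxia against R26 normoxia (adjusted p = 0.0123, and 0.055 without R26 normoxia 1). Col4a2 had 674, 705 and 691 CPM, 632, 597 and 616 CPM and 711, 721 and 738 CPM in the same order, again lowest in R26 hypoxia. Its differences were smaller than those of Col4a1: -0.17 ± 0.04 in hypoxia (adjusted p = 0.0159), 0.23 ± 0.04 for the Hif1a guide in hypoxia (adjusted p = 0.00115) and 0.07 ± 0.04 against normoxia (adjusted p = 0.222, and 0.0367 with the library total as scaling). The fall of Col4a2 in hypoxia was not called without R26 normoxia 2 (adjusted p = 0.0685), without R26 normoxia 3 (0.0505) or without R26 hypoxia 2 (0.0631).

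Col4a5 (chrX:141475385-141689234, plus strand), whose α5 chain is part of the basement membranes of kidney and smooth muscle, did not share this pattern. It had 426, 424 and 451 CPM in R26 normoxia, 425, 430.4 and 476 CPM in R26 hypoxia and 359, 346 and 339 CPM in HIF1a-ko hypoxia. The R26 groups overlapped (0.03 ± 0.05, adjusted p = 0.732), and the HIF1a-ko libraries were lower than both (-0.35 ± 0.05, adjusted p = 0.000516, and -0.32 ± 0.05, adjusted p = 0.00115). Col4a6, which starts 1308 bp from Col4a5 in the opposite direction, was far lower, with group means of 6.5, 5.67 and 4.97 CPM, and was lower in HIF1a-ko hypoxia than in normoxia (-0.40 ± 0.10, adjusted p = 0.00924). Against R26 hypoxia Col4a6 had -0.20 ± 0.10 (adjusted p = 0.126, and 0.0449 without HIF1a-ko hypoxia 2). Col4a3 and Col4a4, chains of the kidney glomerulus, reached at most 0.370 CPM in any library and were not called. Of the 6 genes, then, Col4a1 and Col4a2 fell in hypoxia and none rose (median -0.18), and with the Hif1a guide Col4a1 and Col4a2 rose and Col4a5 fell (median 0.14). Against normoxia Col4a1 was higher and Col4a5 and Col4a6 were lower in HIF1a-ko hypoxia (median -0.06). Of all genes, 13.1% rose and 12.7% fell in hypoxia, and 22.6% and 24.1% with the Hif1a guide in hypoxia. Against normoxia 19.9% were higher and 22.1% lower in HIF1a-ko hypoxia, and the 16.7% of type IV genes higher was near that.

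The main type VI chains had the order of groups seen for type I, with Col6a3 showing the larger differences. Col6a1 (chr10:76708792-76726168) and Col6a2 (chr10:76595762-76623630), both on the minus strand and 85161 bp apart with no protein-coding gene between, encode the short α1 and α2 chains. The long α3 chain, whose cleaved end is known as endotrophin, comes from Col6a3 (chr1:90765923-90843971, minus strand). Col6a3 was read at 469, 490.3 and 495 CPM in R26 normoxia, 782, 829 and 839 CPM in R26 hypoxia and 377, 381 and 375 CPM in HIF1a-ko hypoxia. The groups did not overlap: it rose 1.68-fold in hypoxia (0.75 ± 0.04, adjusted p = 4.74e-06), was 2.16-fold lower in HIF1a-ko than in R26 hypoxia (-1.11 ± 0.04, adjusted p = 1.08e-07) and lay below normoxia there (-0.36 ± 0.04, adjusted p = 0.000114).

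Col6a1 had 3724, 3910.4 and 3391 CPM in R26 normoxia, 4399, 4336 and 3949 CPM in R26 hypoxia and 2457, 2679 and 2626 CPM in HIF1a-ko hypoxia, with no overlap between groups. Its hypoxia difference did not pass (0.20 ± 0.07, adjusted p = 0.0634). It did with the replicate block over 9 libraries (adjusted p = 0.0486), with the block in the R26 groups alone (0.00128) and without R26 hypoxia 3 (0.0328). It also passed with depth class as a term (0.00122) and with DESeq2 (0.0134), and 6 of 11 other settings called it. Col6a1 was lower in HIF1a-ko hypoxia than in R26 hypoxia (-0.71 ± 0.07, adjusted p = 3.03e-05) and R26 normoxia (-0.51 ± 0.07, adjusted p = 0.000329). Col6a2 had 2123, 2210.4 and 2034 CPM, 2425, 2404 and 2324 CPM and 1684, 1739 and 1726 CPM in the same order, and its groups did not overlap either. It rose in hypoxia by 0.17 ± 0.05 (adjusted p = 0.0281), a call that was lost without R26 normoxia 1 (0.078), R26 normoxia 3 (0.0591), R26 hypoxia 1 (0.079) or R26 hypoxia 2 (0.075). Against R26 hypoxia and R26 normoxia, HIF1a-ko hypoxia had -0.47 ± 0.05 (adjusted p = 3.13e-05) and -0.31 ± 0.05 (adjusted p = 0.000643).

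The other type VI genes, which lie next to each other on chromosome 9 and encode chains related to α3, were at low levels. Col6a4 had 0.542, 0.813 and 0.799 CPM in R26 normoxia, 0.87, 1.43 and 0.804 CPM in R26 hypoxia and 1.49, 2.22 and 1.57 CPM in HIF1a-ko hypoxia. Its level was higher in HIF1a-ko hypoxia than in R26 hypoxia (0.79 ± 0.26, adjusted p = 0.0325) and R26 normoxia (1.23 ± 0.28, adjusted p = 0.00651), opposite to the other type VI genes called. The first of these calls was lost without R26 hypoxia 1 (adjusted p = 0.0822), R26 hypoxia 3 (0.155) or HIF1a-ko hypoxia 2 (0.111). Col6a5 was not called and moved with depth. It had 0.181, 0.418 and 0.0563 CPM, 0.609, 0.378 and 0.0567 CPM and 0.0625, 0.341 and 0.224 CPM, and the deeper library of each group was the lowest. Among chains of at least 10 CPM, that library was also the lowest for Col3a1, Col6a1, Col6a2, Col15a1 and Col18a1, by smaller margins. It was the highest for Col1a1, Col4a1, Col4a5 and Col5a1. Of the 5 type VI genes tested, 2 rose and none fell in hypoxia (median 0.44), beside 13.1% and 12.7% of all genes. With the Hif1a guide in hypoxia 1 rose and 3 fell (median -0.59), beside 22.6% and 24.1%. Against normoxia 1 was higher and 3 lower in HIF1a-ko hypoxia (median -0.31), beside 19.9% and 22.1%. The 20% of type VI genes higher in each of the last 2 comparisons was near the share of all genes.

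FACIT genes split by the Hif1a guide. Col12a1 (chr9:79598991-79718831, minus strand), whose product bridges type I fibrils, was read at 249, 234 and 254 CPM in R26 normoxia, 424, 409 and 481 CPM in R26 hypoxia and 405, 414 and 449 CPM in HIF1a-ko hypoxia. All 6 hypoxic libraries lay above all 3 normoxia libraries, and the hypoxic groups overlapped. It rose 1.78-fold in R26 hypoxia (0.83 ± 0.07, adjusted p = 5.10e-05) and stood 1.72-fold above normoxia in HIF1a-ko hypoxia (0.78 ± 0.07, adjusted p = 1.78e-05), with -0.05 ± 0.07 between the hypoxic groups (adjusted p = 0.592). Col14a1 (chr15:55307750-55520803, plus strand), a close relative of Col12a1, had 28.7, 30.3 and 26.5 CPM, 26.6, 35.5 and 24.6 CPM and 7.02, 9.43 and 5.7 CPM in the same order. Here the R26 groups overlapped (0.02 ± 0.17, adjusted p = 0.96), and the HIF1a-ko libraries were 3.9-fold lower than R26 hypoxia (-1.97 ± 0.19, adjusted p = 2.19e-05) and 3.86-fold lower than R26 normoxia (-1.95 ± 0.19, adjusted p = 3.00e-05).

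Col16a1 (chr4:130047840-130099283, plus strand), which encodes a chain found beside fibrils and microfibrils, stood between these patterns. It had 241, 241 and 241 CPM in R26 normoxia, 426, 437 and 439 CPM in R26 hypoxia and 294, 297 and 286 CPM in HIF1a-ko hypoxia, with little spread in any group. It rose 1.8-fold in hypoxia (0.85 ± 0.04, adjusted p = 7.14e-07), was lower in HIF1a-ko than in R26 hypoxia (-0.57 ± 0.04, adjusted p = 1.51e-06) and was above normoxia there (0.28 ± 0.04, adjusted p = 0.000197). Col20a1 was read at 9.69, 10.5 and 11.3 CPM, 12.5, 16.3 and 14.3 CPM and 16.1, 15.9 and 12.1 CPM in the same order, so that the hypoxic libraries of either guide lay above normoxia. It rose by 0.45 ± 0.13 in hypoxia (adjusted p = 0.0343) and by 0.49 ± 0.13 in HIF1a-ko hypoxia (adjusted p = 0.0147). Those calls were lost when single libraries were left out: in hypoxia without R26 normoxia 1, R26 normoxia 2, R26 hypoxia 2 or R26 hypoxia 3 (adjusted p up to 0.116), and against normoxia without R26 normoxia 1 (0.0563) or HIF1a-ko hypoxia 2 (0.0524).

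At lower levels, Col22a1, known from tissue junctions of muscle, had group means of 2.41, 2.43 and 1.42 CPM in the same order of groups. It was lower in HIF1a-ko than in R26 hypoxia (-0.81 ± 0.19, adjusted p = 0.00583) and R26 normoxia (-0.79 ± 0.19, adjusted p = 0.00813). Col9a3, a cartilage chain, had 1.24, 1.23 and 1.45 CPM, 1.26, 1.11 and 1.29 CPM and 2.11, 2.16 and 1.45 CPM, higher in HIF1a-ko than in R26 hypoxia (0.65 ± 0.18, adjusted p = 0.0158) and normoxia (0.54 ± 0.19, adjusted p = 0.0427). HIF1a-ko hypoxia 3 overlapped normoxia for Col9a3, and 6.07% of its exonic bases overlap Tcfl5 on the other strand. Its call against R26 hypoxia was lost without R26 hypoxia 2, HIF1a-ko hypoxia 1 or HIF1a-ko hypoxia 2 (adjusted p up to 0.0683). The call against normoxia was lost without any 1 library except HIF1a-ko hypoxia 3 (adjusted p up to 0.138). Of the 6 FACIT genes tested, 3 rose and none fell in hypoxia (Col12a1, Col16a1 and Col20a1, median 0.23), beside 13.1% and 12.7% of all genes. With the Hif1a guide in hypoxia Col9a3 rose and Col14a1, Col16a1 and Col22a1 fell (median -0.31), beside 22.6% and 24.1%. Against normoxia 4 were higher and 2 lower (median 0.38), beside 19.9% and 22.1%.

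Among the other collagens, Col24a1 and Col27a1 carry a fibril-forming helix of their own, although their types lie outside the fibrillar class as defined here. Col24a1 (chr3:145292472-145552011, plus strand) was a rare transcript, at 0.452, 0.674 and 0.63 CPM in R26 normoxia, 1.41, 1.59 and 1.81 CPM in R26 hypoxia and 0.25, 0.189 and 0.224 CPM in HIF1a-ko hypoxia. Its groups did not overlap, and it had the largest fold changes of the 36 genes tested in the comparisons with R26 hypoxia: 2.75-fold higher in hypoxia (1.46 ± 0.20, adjusted p = 0.000774) and 7.18-fold lower in HIF1a-ko than in R26 hypoxia (-2.84 ± 0.24, adjusted p = 9.79e-06). HIF1a-ko hypoxia was also below normoxia (-1.38 ± 0.29, adjusted p = 0.00423). Col27a1 (chr4:63214004-63334991, plus strand) had 24.1, 26.8 and 23.2 CPM, 29.5, 34.4 and 30.2 CPM and 10.5, 10.4 and 10.5 CPM in the same order. It shared the order of groups, with 0.35 ± 0.08 in hypoxia (adjusted p = 0.00865), -1.58 ± 0.08 for HIF1a-ko against R26 hypoxia (adjusted p = 3.84e-07) and -1.24 ± 0.08 against R26 normoxia (adjusted p = 2.29e-06).

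Col15a1 (chr4:47208161-47313167, plus strand) and Col18a1 (chr10:77052178-77166548, minus strand) encode the related types XV and XVIII, basement membrane-associated collagens whose ends release endostatin-type fragments. Col15a1 was read at 88.3, 98.5 and 82.5 CPM in R26 normoxia, 101, 128 and 88.8 CPM in R26 hypoxia and 35.9, 38.8 and 37.1 CPM in HIF1a-ko hypoxia. The R26 groups overlapped (0.24 ± 0.12, adjusted p = 0.191). This difference passed with the replicate block in the R26 groups alone (adjusted p = 0.00562) and without R26 hypoxia 3 (0.0378). It also passed with depth class as a term (0.037) and with the 6 shallower libraries alone (0.0163). Of 11 other settings 3 called it. HIF1a-ko libraries were 2.84-fold below R26 hypoxia (-1.50 ± 0.12, adjusted p = 8.50e-06) and 2.41-fold below R26 normoxia (-1.27 ± 0.12, adjusted p = 3.25e-05). Col18a1 had 58.3, 62.1 and 53.8 CPM, 97.7, 98.3 and 85.5 CPM and 48.8, 62.7 and 56.9 CPM in the same order. It rose 1.62-fold in hypoxia (0.69 ± 0.10, adjusted p = 0.000902) and was 1.67-fold lower with the Hif1a guide (-0.74 ± 0.10, adjusted p = 0.000189), where it overlapped normoxia (-0.05 ± 0.10, adjusted p = 0.735).

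Col8a1 and Col7a1 were the genes above 10 CPM, beside the type IV pair, that were higher with the Hif1a guide than in R26 hypoxia. Col8a1 (chr16:57624258-57754737, minus strand), a short-chain network collagen of vessel walls and the cornea, had 70.3, 70.1 and 73.9 CPM in R26 normoxia, 72, 70.1 and 81.1 CPM in R26 hypoxia and 128, 129.9 and 128 CPM in HIF1a-ko hypoxia. Both R26 groups overlapped (0.06 ± 0.06, adjusted p = 0.521), and the HIF1a-ko libraries lay above them (0.79 ± 0.06, adjusted p = 3.91e-06, and 0.85 ± 0.06, adjusted p = 3.31e-06). Col7a1 (chr9:108953586-108984875, plus strand), the collagen of anchoring fibrils under epithelia, had 8.5, 8.36 and 6.27 CPM, 11.6, 9.73 and 10.5 CPM and 15.9, 17.2 and 17.2 CPM in the same order. It was higher in R26 hypoxia than in normoxia (0.48 ± 0.12, adjusted p = 0.019, and 0.0586 without R26 hypoxia 1) and higher again in HIF1a-ko hypoxia (0.66 ± 0.12 against R26 hypoxia, adjusted p = 0.00118, and 1.14 ± 0.12 against R26 normoxia, adjusted p = 5.66e-05).

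Col17a1, a transmembrane collagen of hemidesmosomes, had 0.904, 1.14 and 0.957 CPM in R26 normoxia, 0.827, 0.676 and 0.926 CPM in R26 hypoxia and 0.323, 0.549 and 0.407 CPM in HIF1a-ko hypoxia. Levels were lower in HIF1a-ko than in R26 hypoxia (-1.03 ± 0.26, adjusted p = 0.00864) and R26 normoxia (-1.28 ± 0.25, adjusted p = 0.00295), the former not called without R26 hypoxia 3 (0.0513) or HIF1a-ko hypoxia 1 (0.0552). Col8a2, the partner chain of Col8a1, was lower in R26 hypoxia than in normoxia at means of 1.44 and 2.04 CPM (-0.55 ± 0.18, adjusted p = 0.0481). That call was lost in 8 of the 9 fits that left out 1 library (all except that without HIF1a-ko hypoxia 2, with adjusted p up to 0.238) and with the replicate block over 9 libraries (adjusted p = 0.0519). Col28a1, a chain known from peripheral nerve, was lower in HIF1a-ko hypoxia than in normoxia (-0.71 ± 0.22, adjusted p = 0.0273). It was not called without R26 normoxia 2, R26 normoxia 3, HIF1a-ko hypoxia 1 or HIF1a-ko hypoxia 3 (adjusted p up to 0.14). Col23a1, a transmembrane collagen at group means of 1.09, 1.01 and 0.665 CPM, was not called. Without HIF1a-ko hypoxia 2 it was, at adjusted p of 0.0169 against R26 hypoxia and 0.0107 against R26 normoxia. Of the 10 other collagens tested, 4 rose and 1 fell in hypoxia (median 0.15), beside 13.1% and 12.7% of all genes. With the Hif1a guide in hypoxia 2 rose and 5 fell (median -0.66), beside 22.6% and 24.1%. Against normoxia 2 were higher and 5 lower in HIF1a-ko hypoxia (median -0.72), beside 19.9% and 22.1%. The 20% higher in each of the last 2 comparisons was near the share of all genes, as was the 10% that fell in hypoxia. The 8 genes that did not pass the filter, Col6a6, Col9a1, Col9a2, Col10a1, Col13a1, Col19a1, Col25a1 and Col26a1, reached at most 0.265 CPM in any library.

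Because chains combine into molecules, ratios between chain transcripts were read within each library, as ratios of CPM without a test. Col1a1 to Col1a2 was 0.865, 0.910 and 0.985 in R26 normoxia, 0.874, 0.916 and 0.966 in R26 hypoxia, and 1.15, 1.03 and 1.04 in HIF1a-ko hypoxia. The R26 groups overlapped and the HIF1a-ko libraries lay above them. Col6a3 to Col6a1 was 0.132 ± 0.0117 (SD, n = 3) in R26 normoxia, 0.194 ± 0.0175 in R26 hypoxia and 0.146 ± 0.00625 in HIF1a-ko hypoxia, with R26 hypoxia above both other groups. Col4a1 to Col4a2 was 1.46 ± 0.0395, 1.34 ± 0.0495 and 1.58 ± 0.0507, and Col4a5 to Col4a1 was 0.430 ± 0.0114, 0.539 ± 0.0188 and 0.304 ± 0.00580. The type IV ratios did not overlap between groups and moved in opposite directions. Col4a1 is on top in the first and below in the second, so a change in Col4a1 would move them apart. Col4a2 (0.23) and Col4a5 (-0.35) also differed between HIF1a-ko and R26 hypoxia, and the part of each gene was not tested. Col14a1 to Col12a1 was 0.116 ± 0.0126, 0.0669 ± 0.0183 and 0.0176 ± 0.00503, falling from group to group without overlap. Col18a1 to Col15a1 was 0.648 ± 0.0151, 0.900 ± 0.112 and 1.50 ± 0.133, rising from group to group without overlap. Col12a1 to Col1a1 likewise went from 0.0488 ± 0.00497 to 0.0717 ± 0.00130 and 0.112 ± 0.00933, so the fibril-associated transcript was read more often per type I transcript in each hypoxic group.

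**Figure D4:**
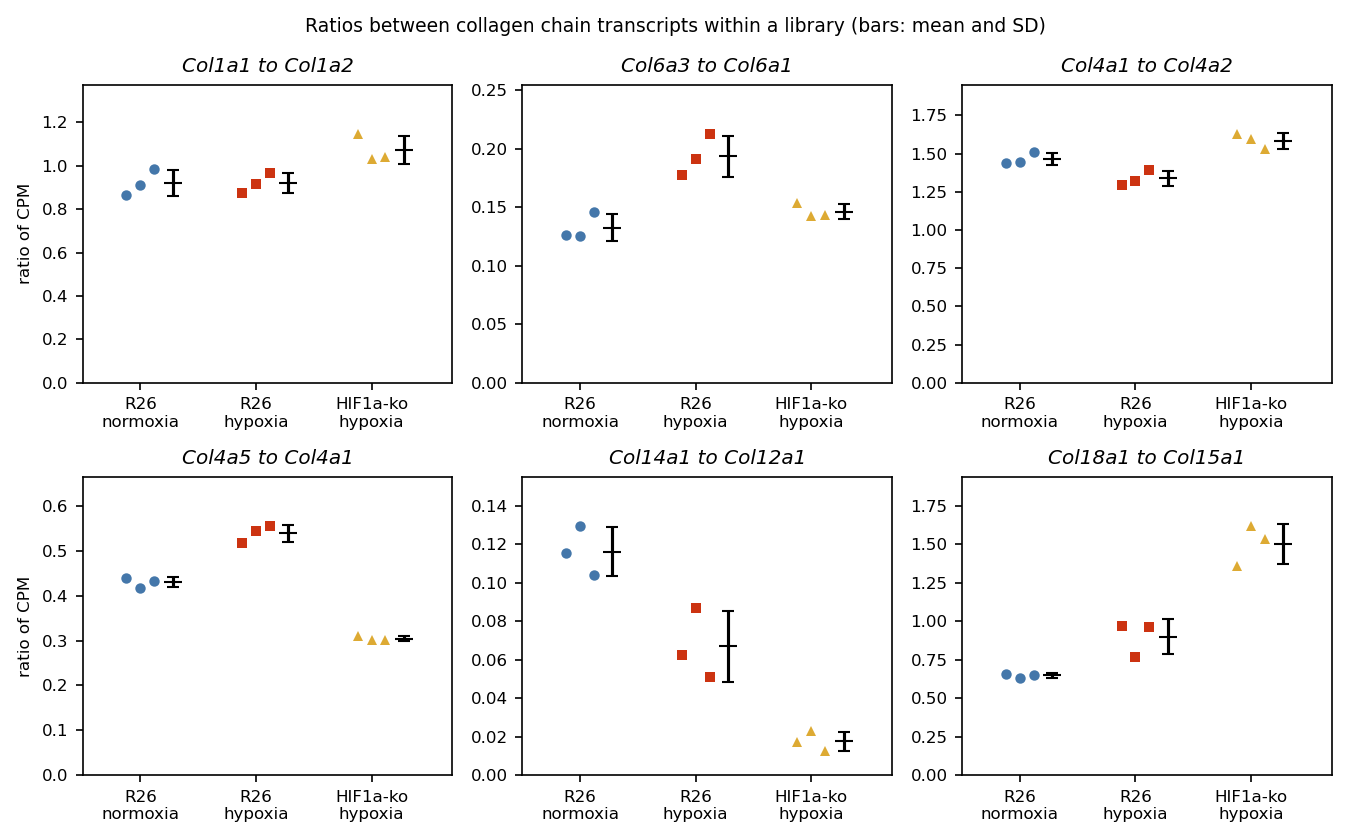
Ratios of CPM between collagen chain genes within a library (y axis, starting at 0), with 1 point per library and the mean and SD of the 3 libraries of a group as a black bar. Col4a5 to Col4a1, Col14a1 to Col12a1 and Col18a1 to Col15a1 take 3 separate levels in normoxia, R26 hypoxia and HIF1a-ko hypoxia, and the R26 groups overlap for Col1a1 to Col1a2.

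HIF-1 binds a short core motif, and promoter sequence was read for it as a description. The core was searched as ACGTG and GCGTG on both strands, so that CACGT and CACGC also count, in the 250 bases before each annotated start of the RefSeq promoter table of GRCm38.p6. ACGTG and CACGT share the palindrome CACGTG, the E-box of other factors. Of 32851 promoters in the table, 12679 (38.6%) held at least 1 match. Of the 44 collagen genes 35 had an entry, with 38 promoters, and 11 of the 38 (28.9%) held a match. Windows of 4 genes that rose in hypoxia are printed, Col5a1 and Col11a2 with a match and Col6a3 and Col24a1 without one. Each runs 5′ to 3′ on the gene's strand with the matches in capitals. Col5a1 is chr2:27886175-27886424 (plus strand), Col11a2 chr17:34038888-34039137 (plus strand), Col6a3 chr1:90843972-90844221 (minus strand) and Col24a1 chr3:145292222-145292471 (plus strand), and none of the 4 windows holds annotated exon bases.
Col5a1: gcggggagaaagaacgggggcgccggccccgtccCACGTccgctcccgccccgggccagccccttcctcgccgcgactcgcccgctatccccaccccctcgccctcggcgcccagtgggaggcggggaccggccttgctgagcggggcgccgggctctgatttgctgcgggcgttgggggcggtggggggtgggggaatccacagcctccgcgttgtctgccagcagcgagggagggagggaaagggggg
Col11a2: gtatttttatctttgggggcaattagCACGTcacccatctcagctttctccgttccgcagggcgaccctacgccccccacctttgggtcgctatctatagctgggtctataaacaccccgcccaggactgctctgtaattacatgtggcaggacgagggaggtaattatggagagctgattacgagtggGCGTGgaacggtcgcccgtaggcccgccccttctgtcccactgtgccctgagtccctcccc
Col6a3: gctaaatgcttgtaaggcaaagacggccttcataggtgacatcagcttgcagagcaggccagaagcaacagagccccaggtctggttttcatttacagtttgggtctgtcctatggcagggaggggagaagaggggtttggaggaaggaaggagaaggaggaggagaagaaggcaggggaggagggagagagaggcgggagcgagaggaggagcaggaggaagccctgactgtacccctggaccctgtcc
Col24a1: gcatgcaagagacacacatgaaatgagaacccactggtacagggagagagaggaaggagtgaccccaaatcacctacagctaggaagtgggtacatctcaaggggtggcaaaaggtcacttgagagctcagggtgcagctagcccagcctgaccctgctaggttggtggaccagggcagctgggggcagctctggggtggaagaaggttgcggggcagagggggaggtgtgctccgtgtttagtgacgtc

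The match of Col5a1 starts 216 bases before its RefSeq start, and those of Col11a2 start 224 and 61 bases before its RefSeq start. The GENCODE M21 start of Col11a2 lies further downstream, at chr17:34039437. Col6a3 (0.75 in hypoxia) and Col24a1 (1.46) hold no match in this window, which says only that these letters are not in these 250 bases. Col4a1 and Col4a2, which fell in hypoxia, hold 1 match each, and all 250 bases of each of these windows are annotated exon.

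The genes that fold, export, cut and bind collagen were read from 3 lists. Of 12 genes of procollagen folding and glycosylation, 11 were tested, and 4 rose and none fell in hypoxia (median log2 fold change 0.16), beside 13.1% and 12.7% of all genes. That count depends on the fit. With the replicate block in the R26 groups alone, P3h1 (adjusted p = 0.00739) and P3h2 (0.00545), both prolyl 3-hydroxylases, were also higher. Crtap, the partner protein of P3h1, was lower in that fit (0.0014). Without the block Crtap had -0.23 (adjusted p = 0.0507). It was called lower with DESeq2 (0.0311), with depth class as a term (0.00245) and without HIF1a-ko hypoxia 1 (0.0244) or HIF1a-ko hypoxia 2 (0.0239). P3h2 was called higher without R26 normoxia 1 (0.0245), and 28.4% of its exonic bases overlap Gm4524 on the other strand. Among the 4 that rose, P3h3, a partner of lysyl hydroxylation in the endoplasmic reticulum, went from a mean of 95.4 to 128 CPM (0.42, adjusted p = 0.000405). With the Hif1a guide in hypoxia 3 rose and 2 fell (median -0.06), near the 22.6% and 24.1% of all genes. Serpinh1, the collagen-specific chaperone HSP47, was among those that rose, with 856, 886 and 850.2 CPM in R26 normoxia, 932, 906 and 877 CPM in R26 hypoxia and 1148, 1163 and 1191 CPM in HIF1a-ko hypoxia. The R26 groups overlapped (0.07, adjusted p = 0.302) and the HIF1a-ko libraries lay above them (0.37, adjusted p = 7.75e-05), opposite in direction to Col1a1 and Col1a2. Tmem38b, an ion channel of the endoplasmic reticulum needed for collagen synthesis, also rose (0.59, adjusted p = 0.000363), and P3h3 fell (-0.71, adjusted p = 3.85e-06). Against normoxia 4 were higher and 3 lower in HIF1a-ko hypoxia (median 0.14), beside 19.9% and 22.1% of all genes.

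Of 12 genes of procollagen export and cleavage, 11 were tested, and 5 rose and 1 fell in hypoxia (median 0.19), beside 13.1% and 12.7% of all genes. With the replicate block in the R26 groups alone, Mia3 (adjusted p = 0.00433), which loads procollagen for export, and Pcolce (0.00218), an enhancer of C-propeptide cleavage, were also higher. Mia3 was called higher without R26 normoxia 3 (0.0493) as well, and Pcolce without HIF1a-ko hypoxia 1 (0.0311), and both without R26 hypoxia 2. With the Hif1a guide in hypoxia 2 rose and 7 fell (median -0.22), beside 22.6% and 24.1% of all genes. Against normoxia 3 were higher and 3 lower in HIF1a-ko hypoxia (median -0.13), near the 19.9% and 22.1% of all genes. Adamts3, a protease that removes the N-terminal propeptide of procollagen, had 8.52, 6.99 and 8.79 CPM in R26 normoxia, 16.7, 16.8 and 18.5 CPM in R26 hypoxia and 5.54, 6.17 and 5.78 CPM in HIF1a-ko hypoxia, with no overlap (1.09, adjusted p = 6.91e-05, and -1.58, adjusted p = 1.43e-06). Adamts2, the main N-propeptidase of type I procollagen, fell with the guide from a mean of 679 to 367 CPM (-0.89, adjusted p = 4.84e-07), as did the C-propeptidase Bmp1, from 417 to 257 CPM (-0.70, adjusted p = 4.98e-06). Sec13, a coat protein of vesicles leaving the endoplasmic reticulum, was the gene that fell in hypoxia (-0.31, adjusted p = 0.0135, and 0.052 without R26 normoxia 2), and it rose with the guide (0.50, adjusted p = 0.000372).

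Of 10 genes of collagen receptors and uptake, 9 were tested, with 4 higher and none lower in hypoxia (median 0.32), beside 13.1% and 12.7% of all genes. With the Hif1a guide in hypoxia 3 were higher and 4 lower (median -0.22), beside 22.6% and 24.1%. Against normoxia 3 were higher and 2 lower in HIF1a-ko hypoxia (median 0.16), beside 19.9% and 22.1%, and the share lower was close to that of all genes. Itga11, the α chain of a fibroblast integrin that binds fibrillar collagen, had 104, 99.2 and 103 CPM in R26 normoxia, 286, 277 and 299 CPM in R26 hypoxia and 95.3, 88.3 and 98.8 CPM in HIF1a-ko hypoxia. The 3 R26 hypoxia libraries stood above the other 6 (1.49, adjusted p = 2.45e-07, and -1.61, adjusted p = 5.04e-08). Itga1, whose integrin prefers type IV, had a like order at means of 50.4, 74.7 and 43.6 CPM (0.57, adjusted p = 0.000497, and -0.78, adjusted p = 1.87e-05). The collagen-binding receptor kinases differed: Ddr1 fell with the guide (-0.60, adjusted p = 2.60e-05) and Ddr2 rose (0.22, adjusted p = 0.00208). Mrc2, the endocytic receptor that takes up collagen fragments, rose in hypoxia (0.32, adjusted p = 0.000717) and stood higher still with the Hif1a guide (0.14, adjusted p = 0.0262). The latter call was lost without R26 hypoxia 1, R26 hypoxia 2, R26 hypoxia 3 or HIF1a-ko hypoxia 2 (adjusted p up to 0.0935).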

How the data were processed

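The authors deposited raw counts, whole numbers per Ensembl gene for 9 libraries. The submitters' processing notes name bcl2fastq 2.17, Trimmomatic, STAR, featureCounts, DESeq2 and the build GRCm38. No source used here gives their roles, the strand setting or the treatment of multi-mapping reads. Reads of overlapping genes could therefore be misassigned. Columns were matched to samples by name, and R26 hypoxia 3 carries its 4 name parts in another order. Of 49315 identifiers, 48970 had a symbol in GENCODE M21.

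The test was the two-sided quasi-likelihood test of edgeR 4.0.16 (R 4.3.3; glmQLFit and glmQLFTest) with TMM scaling, filterByExpr, all 9 libraries and group as the only term. Benjamini-Hochberg adjustment ran over the 18211 genes tested, and an adjusted p under 0.05 is a call. Library totals of 43837809 to 107840223 counts set the precision. Shares used all counts as deposited and were not tested. Alternatives were DESeq2 1.42.0, other scalings and filters, fits on fewer libraries, a depth term and a replicate block. The legacy quasi-likelihood method, the block within the groups compared and a share without non-collagen top genes were added after seeing the data. The fit was also tested on simulated data.

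Genes are given in every library if their mean was at least 10 CPM in a group, or if they were called with a log2 fold change of at least 1 in either direction. Further members and the named pathway genes were picked with their values known. The members and lists were chosen with earlier results of these data known.

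Same-numbered R26 normoxia and R26 hypoxia libraries deviated together from their group means (correlations of 0.4803 to 0.8548 over genes, and -0.7086 to 0.5871 for other pairs), so the block is given beside R26 results whose call it changes. That pairing comes from the data and follows depth, since replicate 3 is the deeper library in both R26 groups. R26 pairs of different depth gave -0.7086 to -0.6189. Among the shallower R26 libraries, same-numbered pairs (0.4803 and 0.5303) were no closer than the others (0.4976 and 0.5871). These values show no pairing by number beyond depth. HIF1a-ko libraries did not pair by number (-0.6564 to 0.5737 with R26 hypoxia and -0.6666 to 0.5868 with R26 normoxia). Within a depth class they gave 0.4944 to 0.8275 with R26 hypoxia and 0.4991 to 0.837 with R26 normoxia.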

Additional observations from a re-analysis of the deposited data

How the results depend on the processing

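Among the 36 collagen genes tested, no called difference changed direction under any alternative run. Leaving out 1 library at a time gave 13 to 16 genes that rose and 1 to 3 that fell in hypoxia, 5 to 7 and 16 to 20 for HIF1a-ko against R26 hypoxia, and 7 to 11 and 14 to 16 for HIF1a-ko hypoxia against R26 normoxia. Over the other 11 settings the counts were 14 to 18 and 1 to 4 in hypoxia. They were 5 to 6 and 16 to 19 for HIF1a-ko against R26 hypoxia, and 8 to 12 and 13 to 17 against normoxia. The value of 1 gene lower in hypoxia came from the fit of the R26 groups alone without the block. With the replicate block over 9 libraries, 17 rose and 3 fell in hypoxia, against 18 and 4 with the block within the R26 groups. For HIF1a-ko hypoxia, whose libraries do not pair by number, the block gave 6 and 18 against R26 hypoxia and 10 and 16 against normoxia. Within the groups compared the block gave 5 and 16, and 8 and 13. Over all genes, 3619 fell in hypoxia with depth class as a term and 2305 without it, and the block within the R26 groups gave 3909 higher and 3500 lower against 2392 and 2305. The collagen share of counts was 2.19% to 2.26% in R26 normoxia, 2.56% to 2.62% in R26 hypoxia and 1.82% to 1.82% in HIF1a-ko hypoxia with 1 library left out. By construction it moved to 1.27%, 1.47% and 1.55% without each library's 10 most counted genes, where HIF1a-ko hypoxia is highest instead of lowest, to 1.12%, 1.37% and 0.909% with counts scaled by gene length, and to 2.40%, 2.82% and 1.97% without the 10 most counted non-collagen genes. The widest standard errors were those of chains at about 1 CPM or less, and the part of depth in this was not tested.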
